A study of Mus musculus with 8 samples.

Results

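Circulating miRNAs were compared between plasma of mice given doxorubicin and plasma of mice given solvents. The comparison was defined by the arrays' titles and covered 5 of the 8 arrays of the series, 3 pools with doxorubicin (DOX) and 2 solvent controls (CTRL). Each array carried 1881 mouse miRNAs, of which 400 were detected on at least 1 of these 5 arrays, 352 were tested and 304 were detected on all 5. The mice were females of the outbred NMRI stock, aged 3 months. Doxorubicin was injected into the tail vein in saline, 4 times on alternate days and at 3 mg/kg each time. Control mice were given the solvents, and whether each of them received the oral and the intravenous solvent is not given in the labels. Plasma was prepared from EDTA blood of the aorta on the day after the last dose, and each array held RNA from a pool of 300 µl made from the plasma of 3 mice, so the spread between arrays is a spread between pools and not between mice. A further group of 3 pools (IMB) received oral imatinib, a tyrosine kinase inhibitor, for 9 days at 100 mg/kg per day and entered here only through the shared estimate of the spread and as a further reference for single miRNAs.

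Doxorubicin is an anthracycline that poisons topoisomerase II and breaks DNA, and the break signal activates the transcription factor p53. It is known for toxicity to the heart, the bone marrow and the gut lining. miRNAs are short RNAs that guide Argonaute proteins to messenger RNAs, mainly through the seed at bases 2 to 8, and they persist in plasma because proteins and vesicles protect them. Many are made mainly in 1 tissue, such as miR-122 in hepatocytes, the miR-1 and miR-133 miRNAs in heart and skeletal muscle, or miR-451a in red cells, while others come from every dividing cell. In plasma, more release, other source cells and slower clearance cannot be told apart, nor can fewer cells of a type from less RNA per cell.

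The mature sequences of the miRNAs that the results turn on were taken from RefSeq (GRCm38.p6), which matched 299 of the 352 tested names. They are written 5′ to 3′ with the seed in capitals. The first pair are the 2 miRNAs past the threshold across all miRNAs, miR-34a-5p on measured values and miR-5132-5p with its DOX values set at the floor for undetected signals. miR-34a-5p lies in Mir34a (chr4:150068473-150068494, plus strand), a gene of its own, and miR-5132-5p in Mir5132 (chrX:74023571-74023591, minus strand), within the span of the protein-coding gene Irak1.
miR-34a-5p: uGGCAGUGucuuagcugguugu
miR-5132-5p: gCGUGGGGugguggacucagg

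The miR-200 family is shown because all 5 members lay higher in every DOX pool than in both controls. It has 2 seeds that differ at 1 base. miR-200b, miR-200a and miR-429 lie within a single short stretch on the minus strand of chromosome 4 (chr4:156053916-156055706), inside the span of the long non-coding RNA Gm13648, and miR-200c and miR-141 lie next to each other on chromosome 6. miR-205-5p, another epithelial miRNA, has an unrelated seed and lies in its host RNA Mir205hg (chr1:193507503-193507524, minus strand).
miR-200b-3p: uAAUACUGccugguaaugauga
miR-429-3p: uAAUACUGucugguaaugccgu
miR-200c-3p: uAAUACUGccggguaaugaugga
miR-200a-3p: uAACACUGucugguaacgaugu
miR-141-3p: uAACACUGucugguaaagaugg
miR-205-5p: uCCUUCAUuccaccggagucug

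The miR-17 seed family is shown because its 5 measured members come from 3 loci and all lay lower on average with doxorubicin. miR-17-5p and miR-20a-5p come from the cluster on chromosome 14 (chr14:115043684-115044496, plus strand), miR-20b-5p from its paralog on the X chromosome, and miR-93-5p and miR-106b-5p from the paralog on chromosome 5 (chr5:138165332-138165807, minus strand), within the span of Mcm7, which encodes a replication helicase subunit.
miR-17-5p: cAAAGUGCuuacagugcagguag
miR-20a-5p: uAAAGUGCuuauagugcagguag
miR-20b-5p: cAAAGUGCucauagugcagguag
miR-93-5p: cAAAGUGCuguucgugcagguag
miR-106b-5p: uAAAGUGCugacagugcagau

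miR-132-3p and miR-212-3p are shown because they share a seed and a locus on chromosome 11 (plus strand, starts at 75173723 and 75173443) and differed from the controls in opposite directions. Their mature sequences have the same length and differ at 5 of 22 bases.
miR-132-3p: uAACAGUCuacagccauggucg
miR-212-3p: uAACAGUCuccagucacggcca

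The DOX arrays were dimmer than the controls although the same 3.1 µl of RNA was labelled for each. Summed signal was 35644.5, 40352 and 38904 in the DOX pools and 52923 and 69665 in the controls, a ratio of 0.625. The 75th percentile before scaling was 62.2, 80.6 and 73.7 against 88.1 and 134. For both measures the groups did not overlap (exact 2-sided permutation p = 0.1, as small as a test of 3 pools against 2 allows). The median coefficient of variation of replicate spots was 6.83%, 7.01% and 7.07% against 6.79% and 6.735%, also without overlap (exact permutation p = 0.2). The negative controls averaged 56.2, 65.6 and 57.0 against 57.4 and 49.5, with overlap (exact permutation p = 0.6). Given the dimmer DOX arrays, each array was scaled to its own 75th percentile over the 296 miRNAs detected on all 8 arrays. Every difference below is relative to the bulk of detected miRNAs. The red cell index, the log2 signal of miR-451a minus that of miR-23a-3p, was 2.85 ± 0.26 (SD, n = 3 pools) with doxorubicin and 3.51 ± 0.47 (SD, n = 2 pools) in controls (exact permutation p = 0.2). The plasma held liver and red cell miRNAs on every array. Of 6 listed brain miRNAs 2 were detected, miR-128-3p on all 5 arrays and miR-219a-5p in both controls and 1 DOX pool. The others, miR-9-5p and miR-124-3p among them, and the cardiac miRNAs miR-208a-3p and miR-499-5p were not detected on any of the 5.

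Fewer miRNAs were detected with doxorubicin. The scanner software called 318 to 337 mouse miRNAs detected in the DOX pools and 355 and 392 in the controls, 328.0 ± 9.54 (SD, n = 3 pools) against 373.5 ± 26.2 (SD, n = 2 pools). The difference of -45.5 had an exact 2-sided permutation p of 0.1, again the smallest possible. Requiring over 50% of a probe's spots to be well above background gave -42.7. The number was lower where the summed signal was lower between these groups, and the part of signal strength in it was not tested. Of the 400 miRNAs detected anywhere, 15 were detected in both controls and in no DOX pool, 16 in both controls and 1 DOX pool, and 16 in both controls and 2 DOX pools. In the other direction, 0 were detected in all 3 DOX pools and neither control. A further 32 were detected in a single control pool only and 4 in a single DOX pool only.

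**Figure D1:**
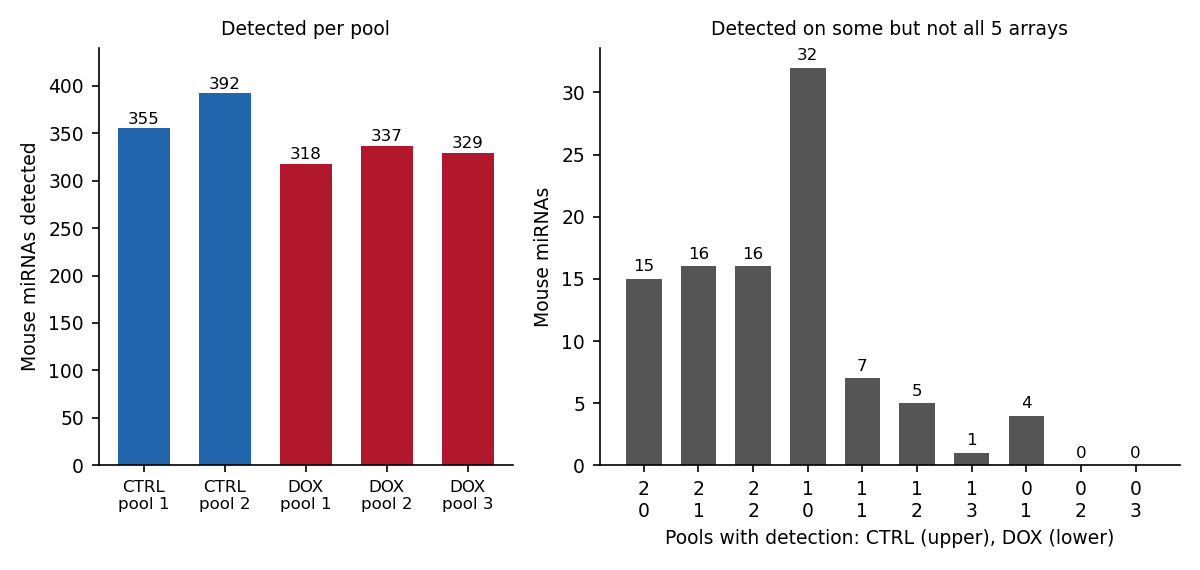
Number of mouse miRNAs detected per pool (left, bars from 0) and number of miRNAs by how many control and DOX pools detected them, for those detected on 1 to 4 of the 5 arrays (right). The controls had 355 and 392 and the DOX pools 318 to 337, and detection in controls without doxorubicin (15 and 32 miRNAs) outnumbered the reverse (4 and 0).

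Across the 352 tested miRNAs the differences between doxorubicin and control were mostly small. Values are log2 scaled signals, and a difference of 1 is a doubling. The median difference was -0.05, the middle of the distribution ran from -0.34 to 0.17 between the quartiles, and 80.4% lay within 0.5 of 0. Of the tested miRNAs 150 lay higher and 202 lower. Among the 304 detected on all 5 arrays the median was -0.01, with 48.0% higher and 52.0% lower, and 87.5% within 0.5. Tested were miRNAs detected in every pool of at least 1 group, and of the 48 that were missing from at least 1 array, 47 entered through the controls and 1 through the DOX pools. This entry rule favours lower values among them, and their fitted size depends on the floor of 0.73 (log2) given to undetected values, so their differences (median -0.75) are no evidence of a direction. They include 17 of the 20 tested miRNAs that differed by less than -1. Counts over lists are therefore also given for members detected on all 5 arrays where the 2 differ.

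The balance of higher and lower depended on the scaling and the background correction. It was 42.6% higher and 57.4% lower as reported. With no scaling it was 4.83% and 94.9%, and with the median as the scaling point 30.7% and 69.0%. With miR-23a-3p and miR-24-3p as references it was 26.1% and 73.3%. With normexp background correction, which added an offset of 50 to the spot signals and used no floor, it was 76.7% and 23.3%. These settings moved the median of all tested miRNAs by -0.59, -0.10, -0.16 and 0.21, and values quoted under them are given relative to that shift. Adjusted p-values quoted under them belong to the fitted values, before the shift was taken off. Ranked across the miRNAs detected on all 5 arrays, the difference was only weakly related to level (Spearman rho 0.07, n = 304) or to the G and C content of the mature sequence (rho 0.18, n = 263), a description across miRNAs that share the same 5 arrays.

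**Figure D2:**
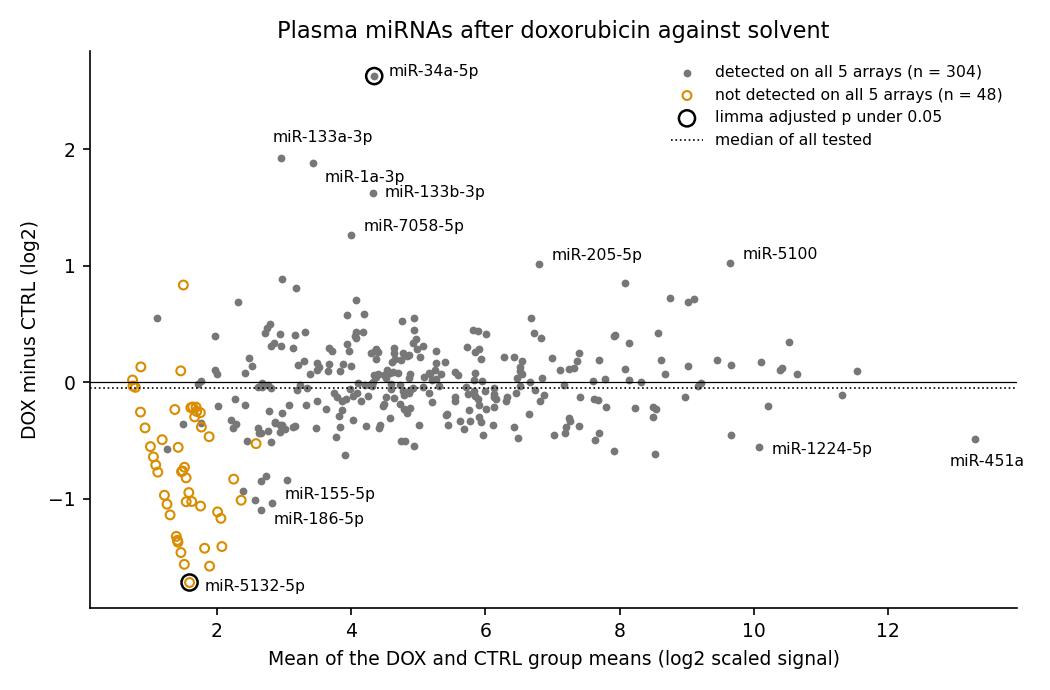
Difference between doxorubicin and control (log2, vertical axis) against the mean level (log2 scaled signal, horizontal axis) for the 352 tested miRNAs. Grey points were detected on all 5 arrays, orange rings were not, black rings passed limma at an adjusted p of 0.05, and the dotted line is the median of all tested; miR-34a-5p stands at 2.63, miR-5132-5p at -1.72, and most grey points lie within 0.5 of 0.

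miR-34a-5p rose. It is transcribed directly under p53 and represses regulators of the cell cycle and survival such as Cdk6, Met and Bcl2. Its signal was 5.42, 5.55 and 6.01 in the DOX pools and 3.12 and 2.94 in the controls, and it was detected on every array. Every DOX pool lay more than 2 log2 units above either control, and the groups were far apart compared with their spread. The difference was 2.63 (SE 0.29), a 6.18-fold rise (limma adjusted p = 0.0038), and this was the 1 miRNA higher past the threshold among 352, a background of 0.284%. In the imatinib pools it was 3.55, 2.74 and 2.88, near the controls. Within the upper row of the slide it was 2.36 and within the lower row 3.07. The size fell to 1.01 with normexp, where the fitted value before the shift was 1.22 (limma adjusted p = 0.016). With no scaling it was 2.61, fitted as 2.03, and the miRNA no longer passed (limma adjusted p = 0.16). It also did not pass when either control pool was left out, at 2.72 without control pool 1 and 2.53 without control pool 2. The limma adjusted p over all alternatives ran from 0.0014 to 0.16.

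The other p53-responsive miRNAs did not pass the test. Of 13 listed miRNAs on the array, 7 were tested. Leaving miR-34a-5p aside, 4 lay higher and 2 lower, 0 with every DOX pool on 1 side of both controls, with a median of 0.19 against -0.05 over all tested. miR-34c-5p, which shares the seed region of miR-34a, was not detected on any of the 5 arrays. A further listed member was 1 of the 4 miRNAs detected in a single DOX pool only (DOX pool 3), and it was not tested. miR-194-5p, made in gut, liver and kidney epithelium, was 3.77, 4.23 and 4.70 with doxorubicin and 3.38 and 3.93 in controls, and its groups overlapped (0.58, SE 0.30, adjusted p = 0.53). miR-192-5p, from the same clusters, differed by 0.40 (SE 0.23) and miR-215-5p, a close relative of miR-192, by 0.21 (SE 0.28), both with overlapping groups. miR-145a-5p and miR-143-3p, smooth muscle miRNAs whose processing p53 is known to aid, differed by 0.17 (SE 0.24) and -0.16 (SE 0.42).

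Epithelial miRNAs lay higher with doxorubicin as a group, without any single member passing. These are the miR-200 family, which holds epithelial identity by repressing Zeb1 and Zeb2, together with miR-205 and miR-203 of stratified epithelia and miR-375 of endocrine and gut cells. All 8 tested members of 11 on the array lay higher, 7 of them with every DOX pool above both controls, where that pattern held for 68 of all 352 tested miRNAs (19.3%). Members as alike in sequence as miR-200b-3p and miR-200c-3p can share probe signal, so the 8 are not independent. The list median was 0.49 against -0.05 over all tested, and 4 of the 8 had an unadjusted limma p under 0.05 and a higher value, against 11 of 352 (3.12%) overall. Its summed signal was 316, 309 and 366 in the DOX pools and 218.49 and 197.005 in the controls. miR-183-5p, miR-182-5p and miR-96-5p, a sensory and epithelial cluster, were not detected.

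miR-205-5p showed the widest separation in this group. It was 7.40, 7.17 and 7.35 in the DOX pools and 6.43 and 6.15 in the controls, a difference of 1.02 (SE 0.28, 2.02-fold, adjusted p = 0.27). Fitted on the DOX and CTRL arrays alone it passed (adjusted p = 0.043), as it did without imatinib pool 1 (adjusted p = 0.026). Its difference ran from 0.57 to 1.15 over the alternatives. miR-429-3p was 4.28, 4.41 and 4.77 against 3.83 and 3.98 (0.58, SE 0.19), and its neighbour miR-200b-3p was 5.05, 5.10 and 5.49 against 4.63 and 4.69 (0.55, SE 0.19). The remaining miRNA of that locus, miR-200a-3p, was 4.23, 4.28 and 4.68 against 3.96 and 3.96 (0.43, SE 0.19). In all 3 the highest value was that of DOX pool 3. miR-141-3p was 2.89, 3.75 and 4.10 against 2.87 and 2.67 (0.81, SE 0.34), so DOX pool 1 lay barely above control pool 1, and miR-200c-3p differed by 0.40 (SE 0.21). miR-203-3p was the member with overlapping groups, at 4.90, 5.41 and 5.30 against 5.33 and 4.94. The list's median was 0.37 within the upper slide row and 0.75 within the lower one, and with normexp it was 0.13.

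**Figure D3:**
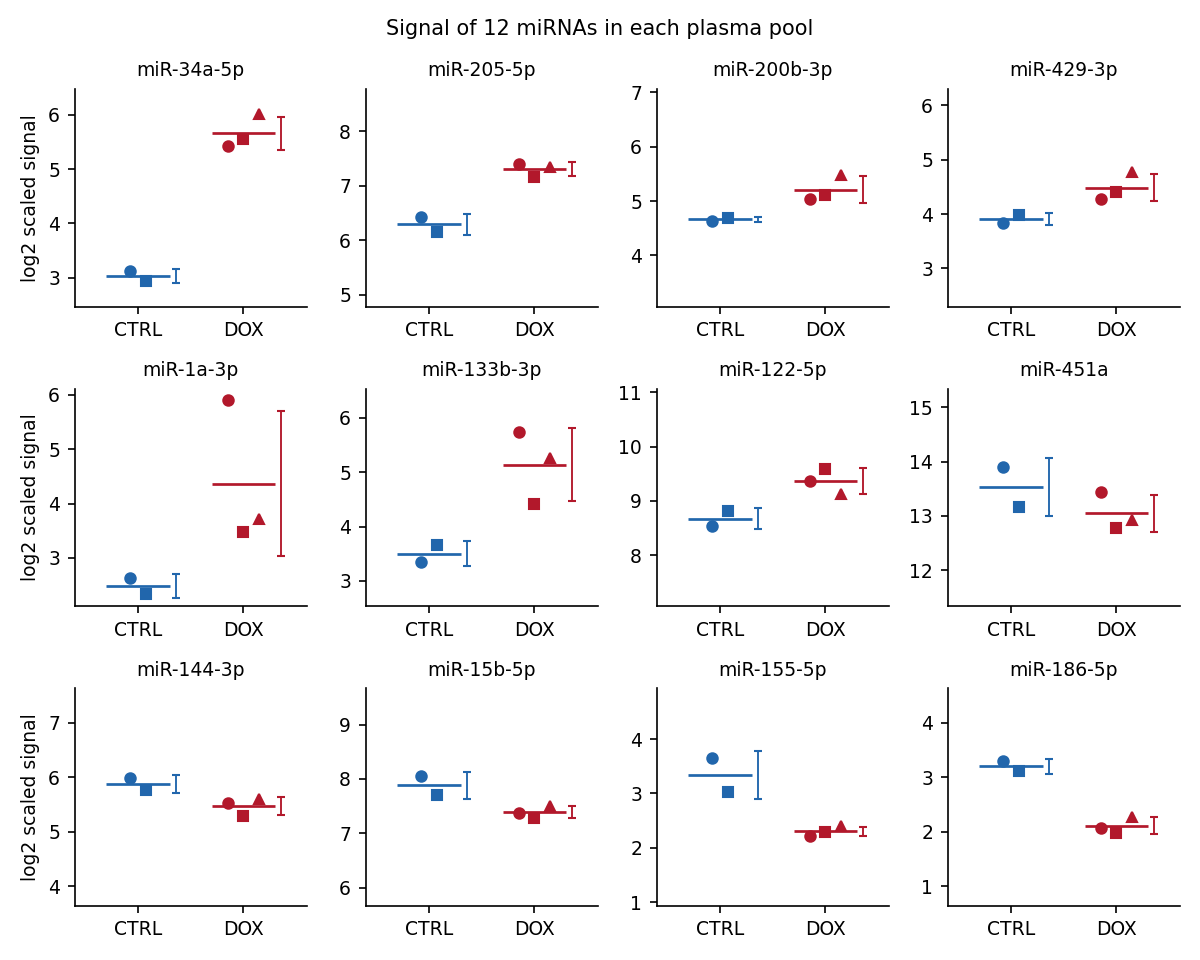
Log2 scaled signal of 12 miRNAs in each pool (circle, square and triangle for pools 1, 2 and 3), with the group mean as a line and the SD as a bar to its right; every panel spans 4 log2 units. miR-34a-5p, miR-205-5p, miR-200b-3p, miR-429-3p, miR-1a-3p, miR-133b-3p and miR-122-5p lie higher in every DOX pool, miR-144-3p, miR-15b-5p, miR-155-5p and miR-186-5p lower, and the groups of miR-451a overlap.

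Striated muscle miRNAs had large but uneven differences. miR-1a-3p, which is made in heart and skeletal muscle, was 5.90, 3.47 and 3.72 in the DOX pools and 2.64 and 2.33 in the controls. Its difference of 1.88 (3.68-fold) had an SE of 1.1 (adjusted p = 0.54), and DOX pool 1 lay over 2 log2 units above the other DOX pools. miR-133a-3p, transcribed together with miR-1a, was 4.85, 2.92 and 3.99 against 2.01 and 1.99 (1.92, SE 1.0). miR-133b-3p, of a skeletal muscle locus, was 5.73, 4.41 and 5.26 against 3.34 and 3.67 (1.63, SE 0.84). For all 3, each DOX pool lay above both controls (19.3% of all tested), and none passed (adjusted p = 0.53 for both miR-133 miRNAs). The imatinib pools spanned 3.99 to 7.83 for miR-1a-3p, so this miRNA varied widely between pools outside the controls as well. Of the 8 listed muscle miRNAs, the myosin heavy chain miRNAs miR-208a-3p, miR-208b-3p and miR-499-5p and the skeletal muscle miRNA miR-206-3p were not detected. The remaining one, miR-486a-5p, is abundant in red cells too and differed by -0.62 (SE 0.39). The median of the 4 tested was 1.75 (0.48 with normexp).

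Liver miRNAs lay higher on the whole. miR-122-5p, the main hepatocyte miRNA, was 9.36, 9.60 and 9.13 in the DOX pools and 8.54 and 8.81 in the controls. Its groups did not overlap, and the difference of 0.69 had an SE of 0.53 (1.61-fold, adjusted p = 0.63), where the imatinib pools, which share the estimate of the spread, ran from 8.08 to 10.06. miR-193a-3p was 2.86, 3.83 and 3.54 against 2.29 and 2.77 (0.88, SE 0.36, adjusted p = 0.44). miR-148a-3p differed by 0.25 (SE 0.34) and miR-101a-3p by -0.10 (SE 0.19), both with overlapping groups. Of 6 members detected on all 5 arrays 5 lay higher, with a median of 0.49. With miR-455-3p, which was detected in no DOX pool, the median was 0.40 (0.088 with normexp). Summed signal of the list was 976, 1140 and 989 with doxorubicin and 636 and 768 in controls.

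Red cell miRNAs lay lower in all 8 members detected on all 5 arrays, and 0 passed the adjusted threshold. Their median was -0.47 against -0.01 over the 304 detected on all 5, and 4 of the 8 had every DOX pool below both controls, a pattern found in 49 of those 304 (16.1%) and in 67 of all 352 (19%). Of the 8, 3 had an unadjusted limma p under 0.05 and a lower value, against 14 of 304 and 27 of 352 (7.67%). A further member, miR-486a-3p, was detected in no DOX pool and entered the test through the controls. miR-144-3p, transcribed with miR-451a under the erythroid factor Gata1, was 5.54, 5.30 and 5.60 with doxorubicin and 5.99 and 5.76 in controls (-0.40, SE 0.17, adjusted p = 0.44). miR-451a itself was 13.44, 12.78 and 12.92 against 13.90 and 13.16, with overlapping groups (-0.48, SE 0.29). It held the highest signal on each of the 5 arrays, with 15.7% to 21.6% of the summed signal in the DOX pools and 19.6% and 28.5% in the controls. miR-486a-5p differed by -0.62 (SE 0.39) and miR-16-5p by -0.45 (SE 0.25), again with overlap. The median of the 9 tested, miR-486a-3p included, was -0.74 within the upper slide row and -0.22 within the lower one.

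The miR-17 cluster and its paralogs lay lower as well. These miRNAs are driven by Myc and E2f factors in dividing cells and also abound in red cell precursors. All 11 tested members lay lower, with a median of -0.43 and differences from -0.59 to -0.20, and 8 had every DOX pool below both controls (19% of all tested). miR-18a-5p was 3.41, 3.45 and 3.75 against 4.11 and 3.89 (-0.47, SE 0.20, adjusted p = 0.44). miR-19a-3p was 6.13, 6.10 and 6.46 against 6.69 and 6.54 (-0.39, SE 0.22). miR-17-5p differed by -0.40 (SE 0.31), and miR-17-3p, from the other arm of the same hairpin, by -0.20 (SE 0.28). The sign of miR-17-3p turned with quantile normalization and in the authors' table. The 5 members with the shared seed printed above ran from -0.48 to -0.40. Sequences as alike as theirs can share probe signal, so these 5 are not independent. miR-25-3p and miR-92a-3p, which have another seed, differed by -0.59 (SE 0.24) and -0.30 (SE 0.31). Of these 11, 3 also stand in the red cell list, and the median was -0.64 within the upper slide row and -0.18 within the lower one, with all 11 lower in each. The red cell index lay lower with doxorubicin too, at 2.85 against 3.51, and its part in these differences was not tested.

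The miR-15 and miR-16 family, which represses cyclins and Bcl2, and the let-7 family, which marks differentiated cells, lay mostly lower. miR-15b-5p was 7.38, 7.28 and 7.51 with doxorubicin and 8.06 and 7.71 in controls (-0.50, SE 0.17, adjusted p = 0.36), and miR-15a-5p was 7.14, 6.94 and 7.21 against 7.59 and 7.25 (-0.33, SE 0.18). In both the groups were separate but DOX pool 3 came close to control pool 2. miR-195a-5p differed by -0.14 (SE 0.26), and 5 of the 6 members lay lower, with a median of -0.39 (-0.16 without control pool 1). The median was -0.51 within the upper slide row and -0.12 within the lower one, where 4 lay lower and 2 higher. let-7i-5p was 6.91, 6.93 and 7.20 against 7.41 and 7.38 (-0.39, SE 0.16, adjusted p = 0.44). let-7d-5p differed by -0.27 (SE 0.18) and let-7a-5p by -0.11 (SE 0.22). let-7b-5p and let-7c-5p were level with the controls at 0.01 (SE 0.24) and 0.03 (SE 0.26). Of the 7 let-7 miRNAs detected on all 5 arrays 5 lay lower and 2 higher, with a median of -0.27. let-7e-5p and miR-98-5p were missing from some DOX pools and entered the test through the controls. With them the median was also -0.27 and ran from -0.40 to -0.11 over the alternatives. Within the upper slide row the median of these 9 was -0.24. Within the lower row it was -0.10, with 6 lower and 3 higher.

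**Figure D4:**
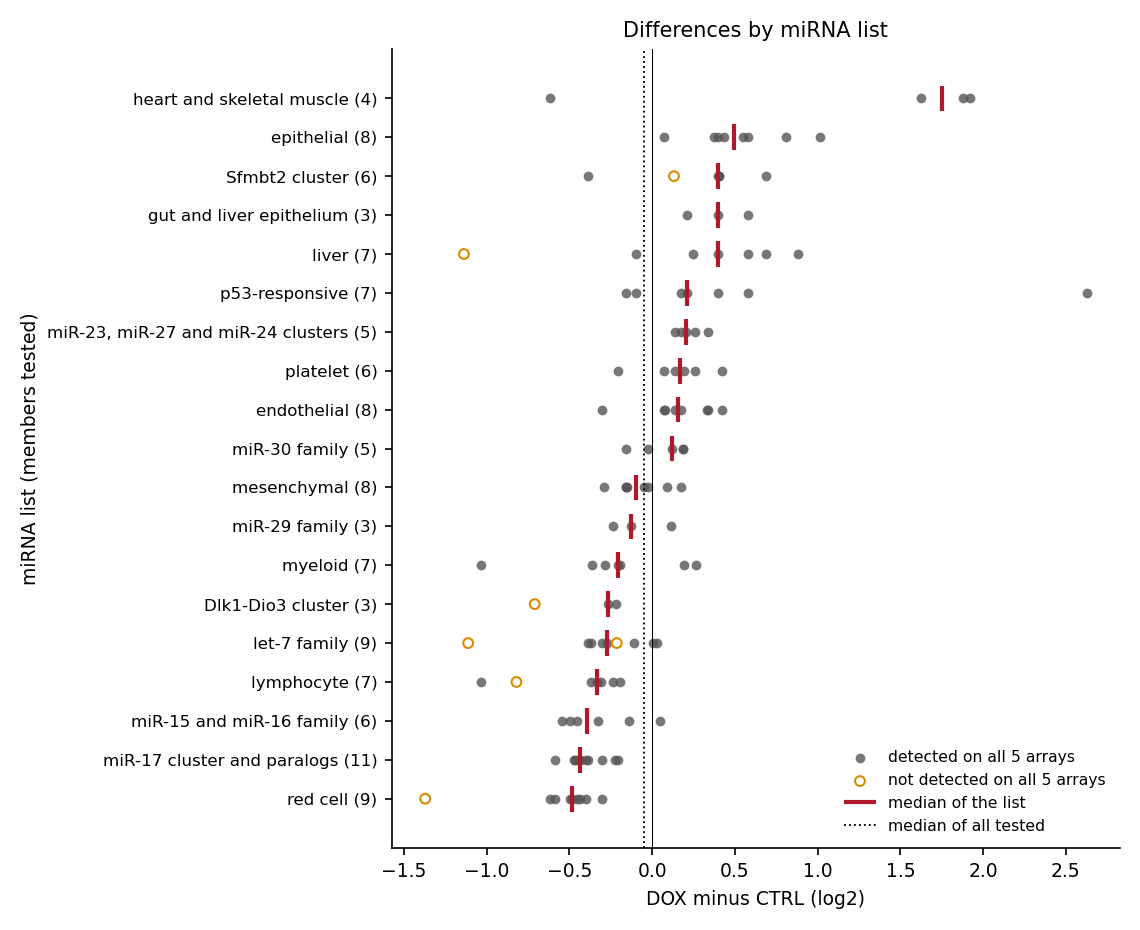
Difference between doxorubicin and control (log2) for each tested member of 19 miRNA lists with at least 3 tested members (number in brackets), with the median of each list in red and the median of all tested miRNAs as a dotted line. Muscle, epithelial and liver lists lie to the right, and the red cell, miR-17, miR-15 and miR-16 and lymphocyte lists to the left, with medians from -0.48 to 1.75; some miRNAs stand in more than 1 list.

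Lymphocyte miRNAs lay lower in all 6 members detected on all 5 arrays, with a median of -0.32, and 0 of the 7 tested passed (1 with an unadjusted limma p under 0.05). The other one, miR-181a-5p, was missing from 2 DOX pools and entered the test through the controls. The clearest was miR-155-5p, which is induced in activated lymphocytes and macrophages from its host RNA Mir155hg. It was 2.22, 2.29 and 2.40 with doxorubicin and 3.65 and 3.03 in controls, a difference of -1.03 (SE 0.22, 2.05-fold lower, adjusted p = 0.11). The DOX pools lay within 0.2 of each other, and the controls were further apart. Over the alternatives the difference of miR-155-5p ran from -1.35 to -0.12. miR-342-3p was 5.72, 5.40 and 5.67 against 6.05 and 5.81 (-0.33, SE 0.35). miR-150-5p, the main miRNA of resting lymphocytes, was 7.33, 6.97 and 6.98 against 7.62 and 7.18, with overlapping groups (-0.31, SE 0.39). miR-29b-3p and miR-146a-5p overlapped as well, at -0.23 (SE 0.33) and -0.19 (SE 0.28). miR-128-3p, which also abounds in brain, differed by -0.37 (SE 0.20). The median of the 7 tested was -0.47 within the upper slide row and -0.20 within the lower one, where 5 lay lower and 2 higher.

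Myeloid miRNAs differed in both directions, and platelet miRNAs lay slightly higher with a sign that depended on the processing. Of 7 tested myeloid members 2 lay higher and 5 lower, with a median of -0.21. miR-223-3p, the main granulocyte miRNA, was 9.53, 9.38 and 9.71 against 9.60 and 9.10 (0.19, SE 0.22), a difference whose sign turned with normexp, quantile normalization and the authors' table. miR-142a-3p and miR-142a-5p, found in all blood cells, differed by -0.36 (SE 0.41) and -0.28 (SE 0.28). miR-21a-5p differed by -0.21 (SE 0.28). miR-511-3p, which lies in the macrophage receptor gene Mrc1, was 2.43, 2.08 and 2.45 against 3.20 and 3.05. Its difference of -0.80 (SE 0.24, adjusted p = 0.27) ran from -0.88 to -0.043 over the alternatives. Of 6 tested platelet members 5 lay higher with a median of 0.17, which became -0.14 with normexp, -0.03 with quantile normalization and -0.02 with the authors' table.

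Endothelial miRNAs lay slightly higher. miR-126a-3p, made from an intron of Egfl7 in endothelial cells, was 8.75, 8.78 and 8.84 with doxorubicin and 8.33 and 8.40 in controls (0.42, SE 0.28, adjusted p = 0.59). The other arm of the same hairpin, miR-126a-5p, was 5.11, 5.04 and 5.11 against 4.71 and 4.8 (0.33, SE 0.18). Both arms thus differed by a similar amount, with pools of 1 group within 0.1 of each other. miR-221-3p and miR-222-3p, from a shared cluster, differed by only 0.07 (SE 0.17) and 0.08 (SE 0.20). The list median was 0.16 (-0.07 with normexp), with 7 of 8 higher and 4 with every DOX pool above both controls (19.3% of all tested). Those 4 include miR-23a-3p and miR-24-3p, which with miR-27a-3p also stand in the list of miR-23, miR-27 and miR-24 clusters below. miR-126a-3p and miR-24-3p stand in the platelet list too.

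Several other lists had small median differences, in either direction. The miR-23, miR-27 and miR-24 clusters, often used as plasma references, had 5 of 5 higher with a median of 0.20 (-0.05 with normexp). Of these, 3 had every DOX pool above both controls (19.3% of all tested). miR-23a-3p and miR-23b-3p differed by 0.18 (SE 0.19) and 0.20 (SE 0.20), miR-27a-3p and miR-27b-3p by 0.34 (SE 0.24) and 0.26 (SE 0.20), and miR-24-3p by 0.14 (SE 0.20). The miR-30 family had a median of 0.12 (-0.15 with normexp), with miR-30a-5p, miR-30b-5p, miR-30c-5p and miR-30d-5p at 0.19 (SE 0.20), -0.02 (SE 0.16), 0.18 (SE 0.14) and 0.12 (SE 0.20). The miR-29 family, which targets collagens, had a median of -0.13 (0.04 without DOX pool 1). miR-29a-3p was 8.67, 8.85 and 9.22 against 8.98 and 9.11, and miR-29c-3p differed by 0.11 (SE 0.20). Mesenchymal miRNAs had a median of -0.10, which turned to 0.0025 with the slide row as a block and 0.0073 without DOX pool 2. Of these miR-199a-3p differed by -0.16 (SE 0.27), and miR-199a-5p by -0.05 (SE 0.35), with a sign that turned with quantile normalization, the higher floor, the slide row as a block and the authors' table. miR-10a-5p, the 1 tested member of the kidney and pancreas list, differed by 0.03 (SE 0.22).

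Imprinted and repeat clusters were mostly below detection. Of the 25 listed miRNAs of the Dlk1-Dio3 locus, a placental and neuronal cluster, 3 were tested. miR-370-3p differed by -0.22 (SE 0.24) and miR-494-3p by -0.27 (SE 0.41), both with overlapping groups, and the other one was detected in no DOX pool. Of 19 miRNAs of the Sfmbt2 cluster on the array 5 were detected on all 5 arrays, and 4 of these lay higher, with a median of 0.40. miR-466i-5p was 8.17, 7.90 and 8.30 against 7.74 and 7.71 (0.40, SE 0.34). miR-466h-3p, miR-467f and miR-669f-3p had overlapping groups, with differences of 0.40, 0.69 and -0.39 and SE from 0.26 to 0.75.

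Outside these lists, a few well-detected miRNAs separated the groups without passing. Higher with doxorubicin were miR-7058-5p at 4.21, 4.90 and 4.76 against 3.50 and 3.23 (1.26, SE 0.25, adjusted p = 0.10) and miR-5100 at 10.72, 9.72 and 10.04 against 9.27 and 9.00 (1.03, SE 0.36, adjusted p = 0.36). The imatinib pools also lay above both controls, from 5.64 to 6.05 for miR-7058-5p and from 10.02 to 10.98 for miR-5100. miR-7058-5p passed without DOX pool 1 (1.47, adjusted p = 0.0497), and its difference ran from 0.38 to 1.47 over the alternatives. miR-1198-5p and miR-5119 differed by 0.47 (SE 0.17) and 0.45 (SE 0.19), with adjusted p of 0.40 and 0.44.

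Other miRNAs lay below both controls in every DOX pool. miR-186-5p, from the Zranb2 gene, was 2.07, 1.98 and 2.28 against 3.30 and 3.11, a difference of -1.09 (SE 0.25, 2.13-fold lower, adjusted p = 0.15). miR-532-5p, of an X-linked cluster, was 2.02, 2.10 and 2.05 against 3.16 and 2.97 (-1.01, SE 0.32, adjusted p = 0.29). Both passed when the fit used the DOX and CTRL arrays alone (adjusted p = 0.043 and 0.034), a setting that left out the imatinib pools, which ran from 2.49 to 3.26 for miR-186-5p and from 2.09 to 3.33 for miR-532-5p. Over the alternatives the difference ran from -1.19 to -0.081 for miR-186-5p and from -1.10 to -0.046 for miR-532-5p. miR-6418-5p and miR-3067-3p differed by -0.62 (SE 0.23) and -0.51 (SE 0.21), with adjusted p of 0.39 and 0.44. miR-1224-5p, a mirtron, was 9.87, 9.91 and 9.60 against 10.31 and 10.39 (-0.56, SE 0.16, adjusted p = 0.27).

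The neighbours miR-132-3p and miR-212-3p differed from the controls in opposite directions. Both are induced by Creb and share the seed shown above. miR-132-3p was 2.16, 2.25 and 2.29 with doxorubicin and 3.16 and 3.00 in controls, a difference of -0.85 (SE 0.26, adjusted p = 0.27). miR-212-3p was 4.35, 4.30 and 4.61 against 3.51 and 3.92, a difference of 0.70 (SE 0.27, adjusted p = 0.43). In each the DOX pools lay on 1 side of both controls. The sign held under every alternative tried, taken relative to the shift of all miRNAs where a setting moved their median. The smallest differences were -0.041 for miR-132-3p and 0.20 for miR-212-3p. Neither passed, apart from miR-132-3p on the DOX and CTRL arrays alone (adjusted p = 0.043), and the difference between the pair was not tested.

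The miRNAs with the highest control signal, apart from those already described, differed little. miR-5126, miR-6769b-5p, miR-8110, miR-3960, miR-6366 and miR-3473b ran from -0.11 to 0.34, with SE from 0.19 to 0.35 and overlapping groups. miRNAs with a number of 1000 or above in the name, mostly later additions to the miRNA catalogue, made up 130 of the 304 detected on all 5 arrays. Their median was 0.0079 against -0.03 for the 174 with lower numbers, and 90.8% against 85.1% lay within 0.5 of 0.

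Of the 15 miRNAs detected in both controls and in no DOX pool, 1 was past the threshold. These 15 entered the test through the controls, and their DOX values are a constant floor, so their p-values partly restate how they were chosen. miR-5132-5p was 2.37 and 2.53 in the controls and not detected in any DOX pool, while the imatinib pools had 2.51, 2.63 and 2.70. Its control mean was 3.07-fold above the lowest detected signal of each DOX array, averaged over the arrays. That signal belongs to other miRNAs, and the detection limit of miR-5132-5p itself was not estimated, so this fold is not a lower bound. The fit with undetected values at the floor gave -1.72 (SE 0.15, adjusted p = 0.0014). The DOX values in it are a constant without spread, so this SE and p do not measure a spread between DOX pools. miR-5132-5p was the 1 miRNA lower past the threshold among 352 (0.284%). With only miRNAs detected on all 5 arrays tested there were 0 lower (14 with an unadjusted limma p under 0.05). It was also the 1 miRNA of the 15 that was well above background in over 50% of its spots on both controls. The fitted size follows the floor, with -3.72 at a floor 4 times lower and 0 at a floor 4 times higher, where all its values lie at the floor. The call was lost there, with no scaling and with normexp. With no scaling the difference was -1.38 relative to the shift and -1.96 as fitted (limma adjusted p = 0.16). With normexp it was -0.09 relative to the shift and 0.12, of the opposite sign, as fitted (limma adjusted p = 0.67).

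**Figure D5:**
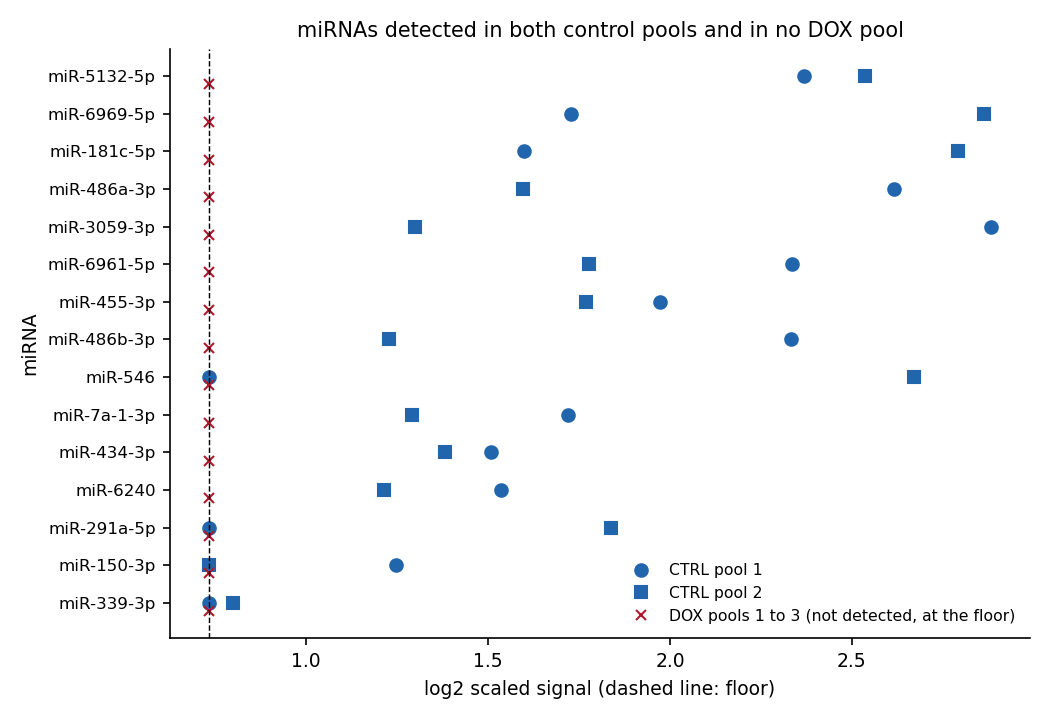
Log2 scaled signal of the 15 miRNAs detected in both control pools and in no DOX pool, ordered by control mean, with control pool 1 as circles, control pool 2 as squares and the undetected DOX pools as crosses at the floor (dashed line, 0.73). Control means run from 2.45 for miR-5132-5p down to 0.77 for miR-339-3p, and for miR-546, miR-291a-5p, miR-150-3p and miR-339-3p at least 1 control value is itself at the floor.

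The other 14 were dim in the controls too. Their control means ran up to 2.30, where the median over the 304 miRNAs detected on all 5 arrays was 4.8. Signal over its error in the controls was 3.06 to 9.29 for the 15, with a median of 4.12, against a median of 11.7 for those 304. The fold of the control mean over the lowest detected DOX signals exceeded 1.5 for 11 of the 15, 2 for 7 and 3 for 1. In the imatinib pools 14 of the 15 were detected at least once and 6 in all 3.

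Folds in what follows set the control mean against the lowest detected DOX signals, as above, and are not bounds. Among the 15, miR-455-3p, a cartilage and liver miRNA of the Col27a1 gene, was 1.97 and 1.77 in the controls. This was 2.05-fold above those signals (limma adjusted p = 0.10 with DOX values at the floor). Its DOX values are a constant floor without spread, and it entered the test through the controls. That it passed under 5 of 22 alternatives, a lower floor among them, is therefore no further evidence of a fall. Over all alternatives the fitted difference of miR-455-3p ran from -3.14 to 0. miR-181c-5p, of lymphocytes and brain, was 1.6 and 2.79 in the controls, 2.57-fold above the lowest DOX signals (adjusted p = 0.27). Its seed relatives miR-181a-5p and miR-181d-5p, named after their values were seen, were detected in both controls and in 1 and 2 DOX pools, with fitted differences of -0.82 (SE 0.41) and -0.83 (SE 0.62). miR-486a-3p and miR-486b-3p, the passenger arms of the red cell miRNA miR-486, had folds of 2.41 and 1.93. Near-identical copies such as these can share probe signal, so they are not independent. miR-3059-3p was 2.88 and 1.3 in the controls, a fold of 2.39, and the 1 miRNA of the 15 not detected in any imatinib pool. miR-6969-5p and miR-6961-5p had folds of 2.75 and 2.33, and miR-7a-1-3p a fold of 1.59, none past the adjusted threshold. miR-546 had a fold of 1.64 on the mean of both controls. Its signal in control pool 1 lay below the floor, and only control pool 2 stood above it. The remaining 5, miR-434-3p, miR-6240, miR-291a-5p, miR-150-3p and miR-339-3p, had control means under 1.5. For miR-339-3p the control mean lay below the lowest detected DOX signals (a fold of 0.94).

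The count of 15 depended on which pools were required. It was 44 with control pool 2 as the only control and 18 with control pool 1 as the only control, and 16, 23 and 22 when DOX pool 1, 2 or 3 was left out. The opposite count was 0 in each of these cases except 1 with control pool 1 as the only control. With the spot rule in place of the software's call the counts were again 15 and 0, though miR-5132-5p was the only one of the 15 above to meet that rule in both controls, so the members differed.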

How the data were processed

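Plasma RNA was hybridised to 1-colour Agilent miRNA arrays, all 8 on 1 slide and scanned at 1 time, in slide rows that each hold all groups. Spot intensity was extracted by the authors in Agilent's Feature Extraction software (11.5.1.1), per the submitters' processing notes, and per the file headers the total intensity per miRNA is background-subtracted, unscaled and set to 0.1 where the miRNA is not detected. The deposited table of log2 values by the authors served as an alternative. Its rows rank detected miRNAs as the scanner signal does (Spearman rho 1, matched by name for 1881 of 1902 rows), its medians over all rows ran from -3.32 to -3.20, and its normalization and centring are not given in the sources used here.

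Each array's total signal per miRNA was divided by its 75th percentile over the 296 miRNAs detected on all 8 arrays, returned to a common level, floored at 1.66 (each array's 1st percentile of detected signals, median over arrays) and put on the log2 scale. Tested were the 352 miRNAs detected on every DOX or every CTRL array. All 8 arrays were fitted with limma 3.58.1 under R 4.3.3 (2-sided, 5 residual and 2.65 prior degrees of freedom), since 2 controls alone give little information on the spread, with Benjamini-Hochberg adjustment over all tested and a threshold of 0.05. The steps were tested on simulated data. Lists were described by counts and medians, without a test. No spot was saturated, and the small number of arrays limits precision throughout.

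The rule for named miRNAs took those past the threshold, up to 10 per direction with separate groups and detection on all 5 arrays by unadjusted p, up to 10 detected in controls only, the 10 with the highest control signal, up to 4 members per list in list order, and a fixed set of tissue markers. Other members of a described seed family or list were named after their values were seen. The members, the 21 lists and the rule were chosen with earlier results of these data known. Alternatives covered the signal, background correction, scaling, filter, floor, arrays fitted, variance model, blocks, leaving out each array and the authors' table. The labels call the pools biological replicates. Their numbers were checked for pairing, and because the correlations of deviations from the group mean between same-numbered pools ran from -0.13 to 0.29, they were not treated as pairs. Sequences and loci are RefSeq's on GRCm38.p6, and some sequences are not reported here. Figures were drawn with matplotlib 3.10.9.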

Additional observations from a re-analysis of the deposited data

How the results depend on the processing

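The count of 1 miRNA higher became 0 with no scaling and 2 on the DOX and CTRL arrays alone, and it ran from 0 to 2 when 1 array was left out (0 without either control pool, 2 without DOX pool 1 or imatinib pool 1). The count of 1 lower became 0 with no scaling, with normexp and with only miRNAs detected on all 5 arrays, a filter that drops miR-5132-5p. It became 2 with the median or the reference miRNAs as the scaling point, 6 with a floor 4 times lower and 7 on the DOX and CTRL arrays alone, and it ran from 1 to 4 when 1 array was left out. Where limma called 0, the miRNAs with an unadjusted p under 0.05 numbered 2 higher and 33 lower with no scaling, 10 lower with normexp, 14 lower with that filter, and 5 and 8 higher without control pool 1 or 2. The difference in miRNAs detected ran from -64 to -27 without 1 pool, the count in controls only from 16 to 44 (44 without control pool 1, 23 without DOX pool 2), and the opposite count from 0 to 1. Quantile normalization, the processed spot signal, the eBayes trend, the looser filter, the slide row as a block and the authors' table left the counts past the threshold at 1 and 1. With a floor 4 times higher the counts were 1 and 1, the lower one being miR-511-3p. With the replicate block they were also 1 and 1, at 2.58 (adjusted p = 0.021) for miR-34a-5p and -1.74 (adjusted p = 0.021) for miR-5132-5p. Scaling to the 75th percentile over all mouse miRNAs was not run, because that percentile is the value of undetected miRNAs, 0.1, on every array.

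Differences that did not pass changed sign under some settings, and the cause was not tested. With normexp, relative to its shift, these were let-7b-5p (-0.24), let-7c-5p (-0.23), miR-10a-5p (-0.12), miR-145a-5p (-0.0041), miR-215-5p (-0.067), miR-221-3p (-0.038), miR-222-3p (-0.096), miR-223-3p (-0.12), miR-23a-3p (-0.14), miR-23b-3p (-0.047), miR-24-3p (-0.17), miR-27b-3p (-0.0013), miR-29c-3p (-0.15), miR-30a-5p (-0.096), miR-30c-5p (-0.079), miR-30d-5p (-0.15), miR-3473b (-0.21), miR-3960 (-0.19), miR-5126 (-0.22), miR-7a-1-3p (0.011) and miR-8110 (-0.24). With quantile normalization they were miR-17-3p (0.23), miR-199a-5p (0.10), miR-223-3p (-0.030), miR-24-3p (-0.022), miR-30b-5p (0.037), miR-3473b (-0.027) and miR-8110 (-0.085). With the authors' table they were miR-17-3p (0.49), miR-199a-5p (0.094), miR-223-3p (-0.030), miR-24-3p (-0.020), miR-30b-5p (0.025), miR-3473b (-0.038), miR-5126 (-0.091) and miR-8110 (-0.083). With the replicate block they were let-7b-5p (-0.069), let-7c-5p (-0.052), miR-10a-5p (-0.023) and miR-29c-3p (-0.0074). miR-199a-5p was 0.080 with the higher floor and 0.048 with the slide row as a block, and let-7b-5p was -0.0062 with no scaling. Leaving out 1 array gave ranges across 0 for let-7b-5p from -0.095 to 0.11, let-7c-5p from -0.084 to 0.15, miR-10a-5p from -0.091 to 0.15, miR-142a-3p from -0.69 to 0.026, miR-195a-5p from -0.27 to 0.0019, miR-199a-5p from -0.28 to 0.14, miR-215-5p from -0.010 to 0.40, miR-221-3p from -0.016 to 0.16, miR-222-3p from -0.096 to 0.25, miR-223-3p from -0.060 to 0.44, miR-29b-3p from -0.49 to 0.041, miR-29c-3p from -0.054 to 0.20, miR-30b-5p from -0.084 to 0.055, miR-3473b from -0.12 to 0.34, miR-3960 from -0.057 to 0.30, miR-494-3p from -0.60 to 0.063, miR-5126 from -0.0057 to 0.20, miR-6769b-5p from -0.22 to 0.017 and miR-8110 from -0.053 to 0.19.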
